A study of Mus musculus with 2 samples.

Results

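The genes described here are 7 mouse genes used to recognise eosinophils. They comprise 3 granule proteins (Prg2, Prg3 and Epx), 3 surface receptors (Siglecf, Il5ra and Ccr3) and the lipid-oxidising enzyme Alox15. The list was drawn up with the intensities and differences of these same arrays in view, so its members count as chosen by those values. They were found by taking every probe set whose platform annotation gave 1 of these symbols, and each symbol matched 1 probe set, so the set held 7 genes of 18193 and 7 probe sets of 45037. The genes were measured on 2 Affymetrix Mouse Genome 430 2.0 arrays, 1 per group. One array held a culture transfected with silncMDSC, an siRNA to lncMDSC, a long non-coding RNA named lnc-C/EBPβ in the study. The other held a culture transfected with control siRNA. Both cultures started from fresh bone marrow cells of C57BL/6 mice and were kept for 4 days in 1640 medium with GM-CSF and IL-6, cytokines under which marrow yields myeloid-derived suppressor cells (MDSCs). Each gave total RNA, of which 6 µg was labelled. The sources used here give neither the number of mice nor any sort of the cells before extraction. The knockdown itself was not analysed here, because no probe set is named for the targeted RNA.

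Eosinophils are granulocytes that bone marrow makes under the control of IL-5, a cytokine related to GM-CSF and IL-3 that shares their common receptor β chain. Their granules hold highly basic, toxic proteins, the crystalline core being major basic protein, and they follow eotaxin chemokines into tissue through the receptor CCR3. Commitment to the lineage depends on the transcription factor GATA-1, acting with C/EBP factors and PU.1. GM-CSF also supports eosinophils and their precursors, so cultures of this kind can hold them beside neutrophil-like and monocyte-like cells.

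GATA-1, C/EBP factors and PU.1 bind short, known motifs, which were looked for in the members' promoters. RefSeq (build GRCm38.p6) gave a window of 250 bases before to 50 bases after the start for 5 of the 7 members, namely Prg3, Epx, Siglecf, Il5ra and Ccr3. The windows of the 3 matched members whose probe sets were above the floor and higher on the silncMDSC array are printed 5′ to 3′ along the gene, with capitals marking matches to GATAA (GATA factors), TTGCNNAA (C/EBP factors) or GAGGAA (PU.1) on either strand, so that TTATC is GATAA and TTCCTC is GAGGAA read on the opposite strand.
Prg3, chr2:84987965-84988264 (plus strand): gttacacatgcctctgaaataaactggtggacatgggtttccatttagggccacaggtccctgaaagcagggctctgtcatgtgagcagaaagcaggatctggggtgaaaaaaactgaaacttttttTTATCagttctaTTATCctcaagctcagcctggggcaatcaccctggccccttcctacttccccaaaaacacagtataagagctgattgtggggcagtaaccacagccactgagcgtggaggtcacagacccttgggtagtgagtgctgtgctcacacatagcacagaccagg
Epx, chr11:87875487-87875786 (minus strand): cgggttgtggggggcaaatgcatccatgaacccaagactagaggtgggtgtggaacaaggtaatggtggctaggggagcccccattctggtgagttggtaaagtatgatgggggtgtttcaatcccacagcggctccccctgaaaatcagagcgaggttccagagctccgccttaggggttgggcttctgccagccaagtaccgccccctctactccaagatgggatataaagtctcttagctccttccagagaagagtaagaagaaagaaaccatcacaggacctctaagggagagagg
Siglecf, chr7:43351091-43351390 (plus strand): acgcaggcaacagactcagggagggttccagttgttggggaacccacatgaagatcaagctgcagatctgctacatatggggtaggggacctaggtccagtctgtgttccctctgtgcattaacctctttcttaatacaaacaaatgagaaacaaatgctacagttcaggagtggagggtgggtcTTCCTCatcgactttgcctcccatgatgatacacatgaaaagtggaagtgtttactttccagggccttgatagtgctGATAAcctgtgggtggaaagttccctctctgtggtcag
At least 1 GATAA stood in the windows of 4 of the 5 members, and Epx was the exception. Of all 32851 promoter windows of this length, 25.4% held GATAA. Counted from the annotated start, GATAA began at -123 and -111 in Prg3, at -73 in Il5ra, at -29 in Ccr3 and at 12 in Siglecf. GAGGAA was found once each in Siglecf, Il5ra and Ccr3, against 28.3% of all windows. TTGCNNAA was found in 0 of the 5 windows, against 10.8% of all windows. These are matches of letters and not measured binding sites, and windows with a GATAA belonged both to members above the floor and to members below it.

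**Figure D1:**
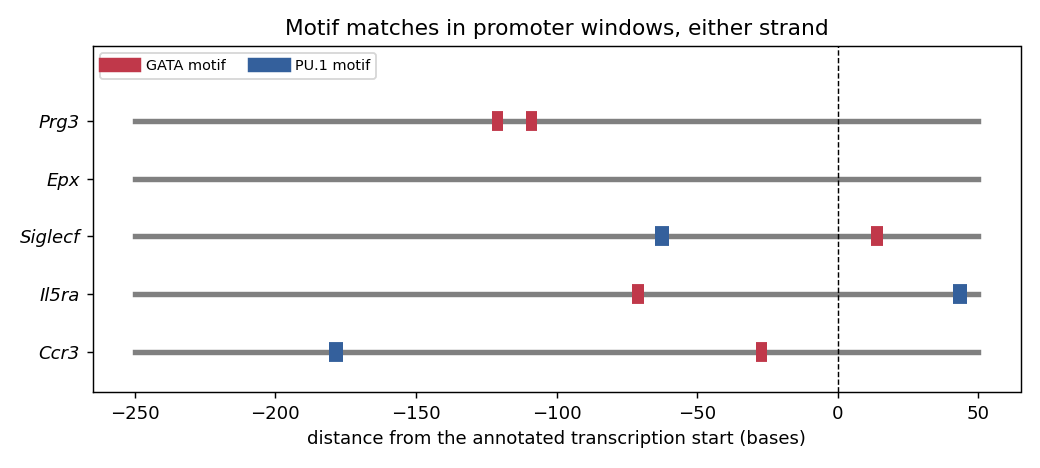
Each grey line is the promoter window of 1 member (x axis, bases from the annotated start, from 250 before to 50 after), with red blocks for GATAA and blue blocks for GAGGAA on either strand. Prg3, Siglecf, Il5ra and Ccr3 carry a red block, the Epx window carries none of either kind, and no C/EBP motif was found in any of the 5.

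The deposited values were linear probe set intensities, so differences are log2(intensity + 1) in silncMDSC cells minus the same in control cells, and folds were computed from them. The floor was 78.4, the median intensity of all probe sets, and a gene counted as above it if it reached it on at least 1 array. With 1 array per group there was no replicate and no test, and each value describes these 2 cultures. The members were chosen with these differences in view, so their sizes are a description. Median intensity was 79.0 on the silncMDSC array and 77.9 on the control array. The 11920 genes above the floor had a median difference of -0.002, with the central 90% between -0.37 and 0.30. Hybridisation spikes added to the samples differed by a median of 0.11 over 18 probe sets and poly-A spikes by 0.16 over 27, both higher on the silncMDSC array. The neutrophil granule genes Ngp, Camp and Ltf were above the floor on both arrays. They do not tell MDSCs from other marrow cells of the neutrophil lineage, so the MDSC label was not checked here.

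Among the granule proteins, Prg2 and Epx were higher in silncMDSC cells and Prg3 was nearer to control. Prg2 encodes major basic protein 1, the main protein of the granule core. Its intensity was 2954 in silncMDSC cells and 2022 in control cells, 1.46-fold higher (log2 difference 0.55). That placed Prg2 at rank 131 from the top of the 11920 genes. Epx encodes eosinophil peroxidase, which makes oxidising halide acids. It had an intensity of 529 in silncMDSC cells against 392 in control cells, 1.35-fold higher (0.43, rank 259).

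Prg3 encodes major basic protein 2, a close relative of Prg2, and RefSeq (GRCm38.p6) annotates 0 protein-coding genes between them. Its intensity was 467 in silncMDSC cells and 411 in control cells, 1.14-fold higher (0.18). At rank 1645, Prg3 was passed by many genes, and its difference lay inside the central 90% of all genes above the floor. The difference of Prg2 exceeded that of its neighbour by 0.36 on the log2 scale, a gap for which no error can be given. Intensities of different probe sets depend on their probes, so each gene's intensity is read against its own on the other array and does not rank genes by RNA level.

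The receptors split by level. Siglecf encodes Siglec-F, a sialic acid-binding inhibitory receptor of mouse eosinophils that alveolar macrophages also carry. It had an intensity of 362 in silncMDSC cells and 259.7 in control cells, 1.39-fold higher (0.48, rank 186). Il5ra, the IL-5 receptor α chain, had 30.4 in silncMDSC cells and 33.3 in control cells (-0.12). Ccr3, the eotaxin receptor, had 37.5 in silncMDSC cells and 38.55 in control cells (-0.04). Il5ra and Ccr3 were thus below the floor on both arrays, where no direction can be read.

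Alox15 encodes a lipoxygenase, which oxidises arachidonic acid and is made by eosinophils and by resident peritoneal macrophages. It had 251 in silncMDSC cells and 260.3 in control cells, a difference of -0.05 that lay near the middle of all genes (rank 7302). It was the 1 member above the floor that was not higher on the silncMDSC array.

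**Figure D2:**
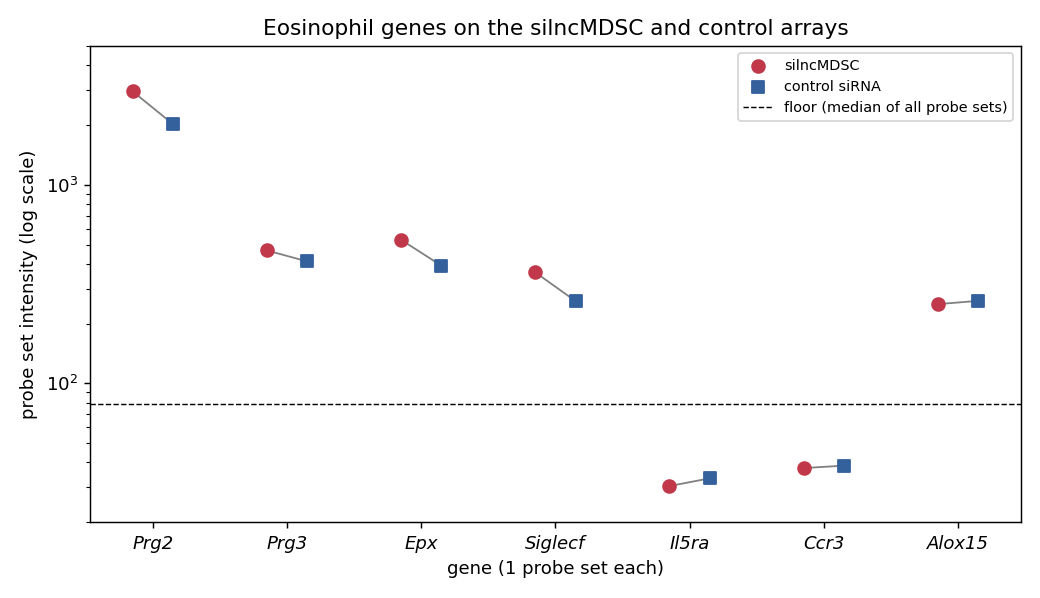
Probe set intensity (y axis, log scale) of each of the 7 genes (x axis) on the silncMDSC array (red circles) and the control array (blue squares), joined by a line, with the floor of 78.4 dashed. Prg2, Prg3, Epx and Siglecf are higher on the silncMDSC array, Alox15 is almost level at 251 and 260.3, and both values of Il5ra and Ccr3 lie below the floor.

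Counted together, 5 of the 7 members were above the floor, each of them on both arrays. Of these 5, 4 had a difference above 0, against 49.3% of all genes above the floor, and 3 were at least 1.2-fold higher in silncMDSC cells, against 6.96%. None of the 5 was at least 1.2-fold lower, against 10.6% of all genes. At 1.5-fold the count of members was 0, against 0.948% of genes higher and 1.42% lower, and at the 2-fold threshold of the study's methods it was also 0, against 0.168% and 0.134%. The median difference was 0.43 over the 5 and 0.18 over all 7, beside -0.002 over all genes above the floor and 0.006 over all 18193 genes. Since the spread of differences changes with brightness, genes were also grouped by the brightness of their probe sets, and Prg2 belonged to the brightest 2980, of which 5.7% passed 1.2-fold on the higher side. Epx, Siglecf and Prg3 belonged to the next 2980, with 7.45%, and Alox15 to the 2980 under those, with 7.18%. These counts follow from how the members were chosen and give no separate evidence. In a culture read as a whole, more eosinophils, more of these RNAs per eosinophil and RNA of other cells cannot be told apart.

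**Figure D3:**
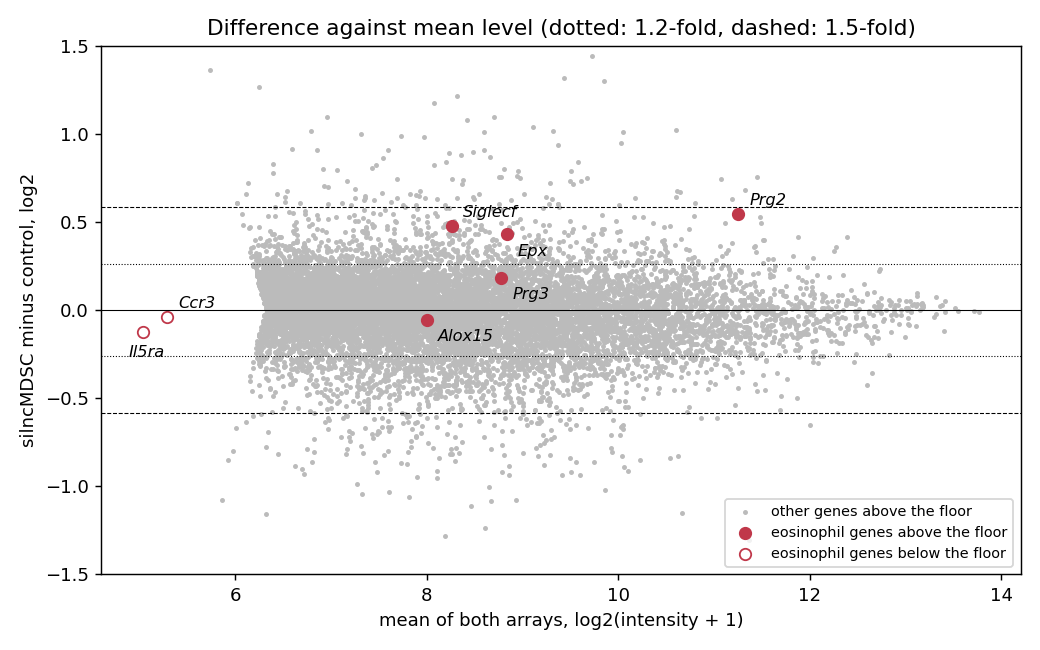
Grey points are the 11920 genes that reached the floor, placed by mean probe set brightness (x axis, log2(intensity + 1)) and by silncMDSC minus control difference (y axis, log2). Members above the floor are filled red, those below it are open, dotted and dashed lines mark 1.2-fold and 1.5-fold, and 5 genes farther than 1.5 from 0 fall outside the plot. Prg2, Siglecf and Epx lie between the 1.2-fold and 1.5-fold lines, and Prg3 and Alox15 lie inside the dotted lines.

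Other granule genes were few on the array. Counts in the lists below are read beside all genes above the floor. Of those, 6.96% were at least 1.2-fold higher in silncMDSC cells and 10.6% at least 1.2-fold lower. Eosinophil-associated ribonucleases are small, rapidly evolving granule enzymes of mice, some of which macrophages also make. Of 13 listed, 3 had a probe set with 1 symbol and 2 were above the floor, both at least 1.2-fold higher. Rnase2a had 127 in silncMDSC cells and 85.9 in control cells, 1.48-fold higher (0.56). Ear3 had 244 in silncMDSC cells and 198 in control cells, 1.23-fold higher (0.30), but its probe set ends in _x_at, the mark of probes that can bind near-identical family members, so it cannot be credited to Ear3 alone. Rnase2b, named here with Il5 and Ccl11 after their values were seen, had 27.7 in silncMDSC cells and 26.4 in control cells, below the floor. The other 10 ribonucleases are not analysed here.

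Genes that eosinophils share with other myeloid cells shared no direction. Of 20 receptors and adhesion molecules above the floor, 2 passed 1.2-fold on the higher side and 1 on the lower, and the median was 0.05. Cysltr1, a receptor for cysteinyl leukotrienes, had 621 in silncMDSC cells and 475 in control cells (0.39), but its other probe set differed by only 0.07. Cxcr4, which holds leukocytes in marrow, differed by 0.27, and the integrin chain Itgb7 by 0.26. C3ar1, the receptor for complement C3a, was 1.54-fold lower, with 793 in silncMDSC cells and 1223 in control cells, and its other probe sets were at -0.63 and -0.54. Csf2rb, the β chain that IL-5, GM-CSF and IL-3 receptors share, was named after its values were seen. It had 7332 in silncMDSC cells and 7461 in control cells (-0.03), so the common chain was nearly level while the α chain Il5ra stayed below the floor.

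Transcription factors of the lineage differed in both directions, beside 6.96% of all genes above the floor past 1.2-fold on the higher side and 10.6% on the lower. Gata1, the factor that commits cells to the eosinophil lineage, had 119.9 in silncMDSC cells and 98.2 in control cells, 1.22-fold higher (0.29). It was the 1 factor of 12 above the floor to pass 1.2-fold on the higher side, and 0 did with a pseudocount of 16. The median was -0.07, and 3 factors passed 1.2-fold on the lower side, namely Id1, an inhibitor of basic helix-loop-helix factors (1.77-fold lower, -0.83), Trib1, a pseudokinase that triggers C/EBPα breakdown (-0.39), and the repressor Gfi1 (-0.34). Gata1 also serves red cell, platelet and mast cell precursors, so its level is not particular to eosinophils.

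Signalling genes behind the IL-5 receptor were centred on 0. Of 17 above the floor, 2 passed 1.2-fold in each direction, and the median was -0.001. The kinase Jak2 differed by 0.28, with 0.29 on its other probe set, and Stat5b by 0.28, with 0.05 on its other one. On the lower side stood the feedback inhibitor Socs1 (-0.52) and Bcl2l1, which encodes the survival protein BCL-XL (-0.44).

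The cytokines and chemokines that act on eosinophils went in opposite directions. Of 14 listed, 8 were above the floor, and Il5 itself had 44.0 in silncMDSC cells and 43.1 in control cells, below it. Among ligands of Ccr3, Ccl24 (eotaxin-2) had 546 in silncMDSC cells and 125 in control cells (2.11), and Ccl5 had 1059 in silncMDSC cells and 629.5 in control cells (0.75). Ccl7, which also binds Ccr3, was lower, with 527 in silncMDSC cells and 1678 in control cells (-1.67). Ccl11 (eotaxin-1) was below the floor on both arrays, and Il4 differed by 0.13. Ccl24, Ccl5 and Ccl7 were the ligands past 1.2-fold, and the median of the 8 was 0.02.

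Enzymes of lipid mediators were mostly level apart from the ends of the list. Ltc4s makes leukotriene C4, the cysteinyl leukotriene that eosinophils, mast cells and some macrophages release. It had 496 in silncMDSC cells and 235 in control cells, 2.11-fold higher (1.08), on its only probe set with 1 symbol. Gpx4, which reduces lipid peroxides, differed by 0.20. Pla2g4a, the phospholipase that frees arachidonic acid (-0.31), and the prostaglandin-making enzyme Ptgs2 (-1.16, below the floor in silncMDSC cells) were at least 1.2-fold lower. The other Ptgs2 probe set was below the floor on both arrays, with 41.22 in silncMDSC cells and 45.25 in control cells (-0.13). Ltc4s was the 1 enzyme of 8 above the floor to pass 1.2-fold on the higher side, and the median was 0.06.

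**Figure D4:**
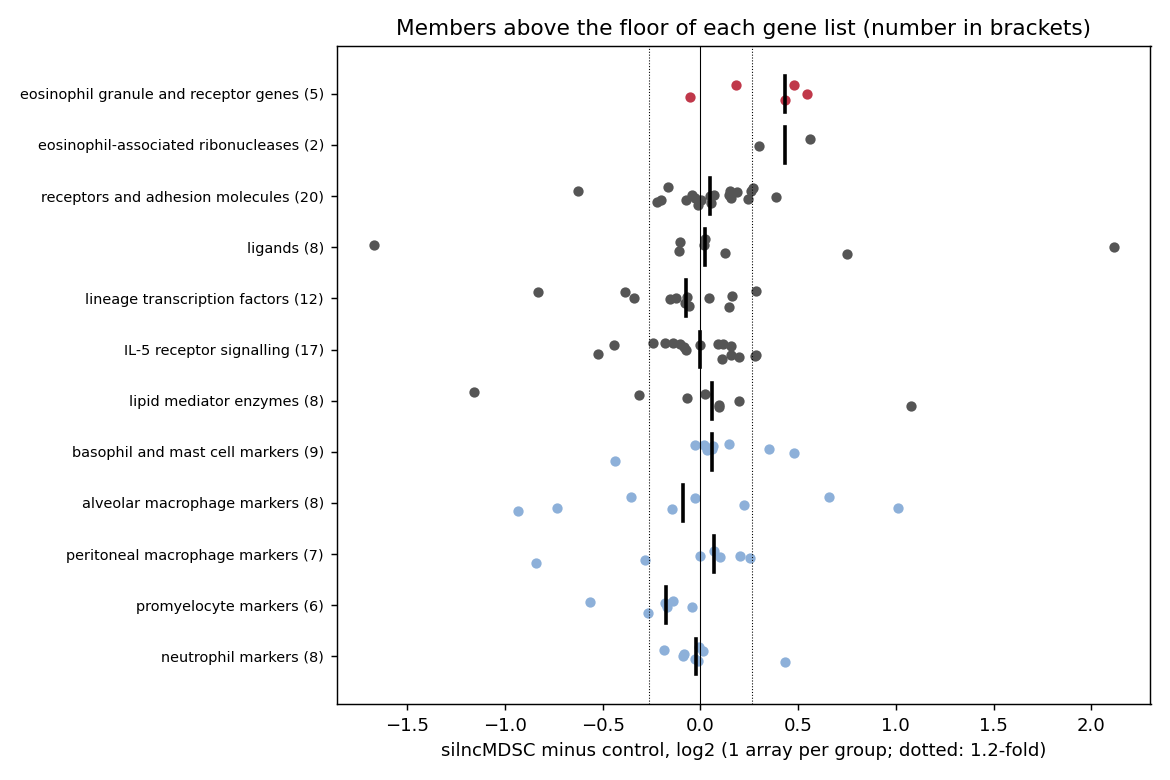
Points are genes that reached the floor, placed along the x axis by silncMDSC minus control (log2) in rows by list with the number of genes in brackets. The black bar is the list's median, red marks the eosinophil members, dark grey other eosinophil genes and light blue markers of other cells. The medians of the 5 members and of the 2 ribonucleases, 1 of them on an _x_at probe set, stand at 0.43. Those of the other 10 lists lie between -0.17 and 0.07.

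Markers of other cells that carry some of these RNAs were read on the same arrays, and their part in the differences above was not tested. The summed intensity of a list gives most weight to its brightest probe sets and includes genes below the floor. It does not measure the amount of a cell type. For basophils and mast cells, 9 of 11 markers were above the floor and the intensities of all 11 summed to 7984 in silncMDSC cells and 7386 in control cells. Without Cpa3, whose intensity differed most, the sum was 6234 in silncMDSC cells and 6128 in control cells. The basophil protease Mcpt8 had 4082 in silncMDSC cells and 4030.1 in control cells, nearly level. Ms4a2, the β chain of the IgE receptor, had 495 in silncMDSC cells and 483 in control cells (0.04), but its other probe set was lower, with 124 in silncMDSC cells and 142 in control cells (-0.20). The mast cell protease Cma1 was below the floor on both arrays. Cpa3, a carboxypeptidase of both cell types, had 1750.4 in silncMDSC cells and 1257 in control cells (0.48). Cd200r3 differed by 0.35, with 0.43 on its other probe set, Tpsb2 by 0.14 and Fcer1a by -0.44. Cpa3 and Cd200r3 passed 1.2-fold on the higher side and Fcer1a on the lower, and the median of the 9 was 0.06.

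Alveolar macrophages, which carry Siglec-F, were read by 11 markers, 8 of them above the floor. Of the defining ones, neither Marco nor Krt79 reached the floor, and Car4, a carbonic anhydrase found in other cells too, had 1509 in silncMDSC cells and 748 in control cells (1.01). Itgax was higher (0.66), and Mrc1 (-0.93) and Fabp4 (-0.73) were lower. All 11 summed to 11444 in silncMDSC cells and 12669 in control cells. The direction of that sum rested on Fabp5, a fatty acid-binding protein named after its values were seen, with 5672 in silncMDSC cells and 7257 in control cells (-0.36). Without Fabp5 the sum was 5771 in silncMDSC cells and 5412 in control cells. The median was -0.09, with 2 of the 8 past 1.2-fold on the higher side and 3 on the lower. Peritoneal macrophages, which make Alox15, had 7 of 10 markers above the floor, a sum over all 10 of 3274 in silncMDSC cells and 4056 in control cells, and a median of 0.07, which was -0.14 with the floor at the 75th percentile. Without Serpinb2 the sum turned round as well, with 2164 in silncMDSC cells and 2067 in control cells. Their defining marker Timd4 was below the floor on both arrays and Gata6 differed by 0.10. Serpinb2 (-0.84) and Icam2 (-0.28) were at least 1.2-fold lower, and Selp (0.25) and Fn1 (0.20) were inside 1.2-fold.

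Markers of promyelocytes and neutrophils were level or lower in silncMDSC cells, apart from Cxcr2. All 6 promyelocyte markers above the floor were lower, 2 of them at least 1.2-fold, with a median of -0.17 and a sum of 20159.9 in silncMDSC cells and 23748 in control cells. Ms4a3 differed by -0.57, and the primary granule proteins Mpo, Elane and Prtn3 by -0.27, -0.18 and -0.17. The 8 neutrophil markers had a median of -0.02 and a sum of 63698 in silncMDSC cells and 64984 in control cells. Among them Ltf (-0.19), Mmp8 (-0.09), Camp (-0.08) and Ngp (0.01) were within 1.2-fold, and only the chemokine receptor Cxcr2 was farther apart (0.44).

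The differences of the members moved little with the processing. Prg2 ran from 0.54 to 0.58 over the settings tried, Epx from 0.42 to 0.47, Siglecf from 0.46 to 0.50 and Prg3 from 0.18 to 0.22, while Alox15 stayed between -0.06 and -0.04. The count of members at least 1.2-fold higher was 3 under each of the 9 other settings. Since every member was read by 1 probe set, no member could be checked against another probe set of the same gene.

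**Figure D5:**
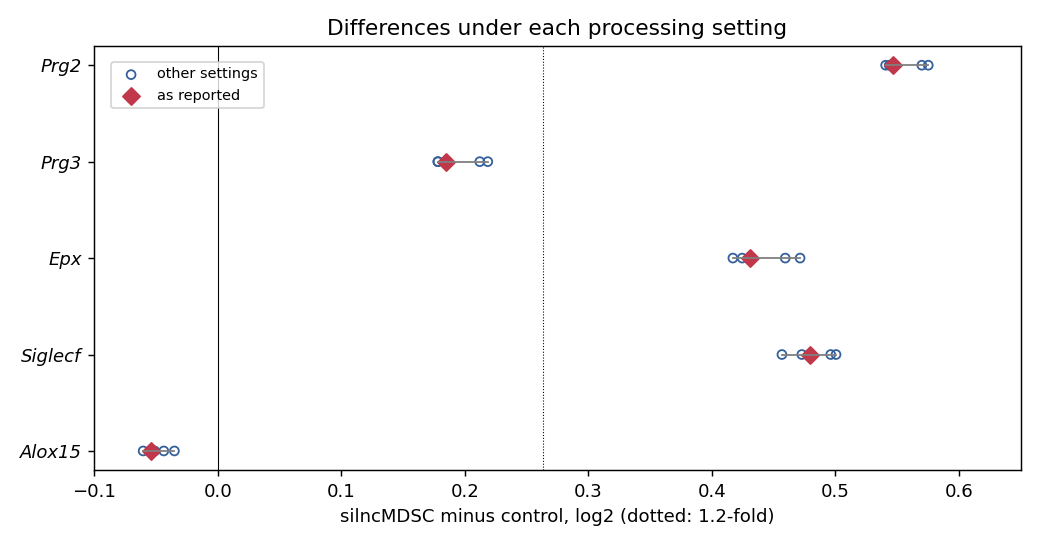
Difference of each member above the floor (x axis, silncMDSC minus control, log2) as reported (red diamonds) and under the other processing settings (open circles), with 1.2-fold dotted. Prg2, Epx and Siglecf stay right of the dotted line, Prg3 stays between 0 and that line, and Alox15 stays just below 0.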

How the data were processed

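Total RNA of 1 silncMDSC and 1 control siRNA culture was read on Affymetrix Mouse Genome 430 2.0 arrays. The authors deposited probe set intensities on a linear scale and none lay under 1; the submitters' processing notes name RMA, whose version and the step back to a linear scale are not given in the sources used here. Compression at high intensity and noise near the floor can change the size of a difference. The study's methods name limma, which needs replicates, so with 0 residual degrees of freedom no test was run. The number of arrays limits the precision.

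Leaving out 64 control probe sets, the platform annotation gave 1 symbol to 34945 of 45037 probe sets, several to 932 and no symbol to 9160. Through Entrez identifiers 34741 were found in RefSeq (GRCm38.p6) and 0 symbols changed. No probe set with several symbols listed a member or an eosinophil-associated ribonuclease. A gene was read from its brightest probe set and differences were log2(intensity + 1) of silncMDSC minus control. Members, lists, folds of 1.2 and 1.5 and the naming rule were chosen with earlier results of these data known. The text names all members, the up to 4 genes of each list farthest from 0, any at least 1.5-fold apart and defining markers of other cells; the rule's genes nearest to Prg2 are not printed, since nearness sets intensities of different probe sets against each other. The lists cover 6 groups of other eosinophil genes and 5 of other cells. Alternatives were centring, lowess (fraction 0.3), quantile normalization, a pseudocount of 16, other floors, the mean of probe sets and no _x_at or _s_at probe sets. The calculation was tested on simulated data with little noise, which checks the arithmetic and not how reliable a 1.2-fold difference is here. Python 3.11.15, pandas 2.3.3 and statsmodels 0.14.6 were used.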

Additional observations from a re-analysis of the deposited data

How the results depend on the processing

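No paired analysis was possible because each group held 1 array, and for the same reason leaving out an array leaves no comparison. Alternatives of floor and of probe sets could not change the difference of a member with 1 probe set. Part of the following count was thus fixed in advance. Of 120 comparisons of a member value with an alternative, 119 stayed within 0.1 on the log2 scale or within 1.5 times the count, and no member above the floor changed sign. The 1 that moved was the median of the members, 0.18 with no floor because Il5ra and Ccr3 then entered. Without Alox15, the member farthest from the median, it was 0.46. Of 297 comparisons for the other lists 22 moved. List medians changed sign in 4 of 99 comparisons, for the peritoneal macrophage markers with the higher floor and for IL-5 receptor signalling, at -0.001 as reported, with lowess (0.03), quantile normalization (0.04) and the mean of all probe sets (0.01), and the cause was not tested beyond which genes an alternative leaves in. With the floor at the 75th percentile, the ribonucleases had a median of 0.30 and 1 gene at least 1.2-fold higher, the ligands a median of 0.32, the peritoneal macrophage markers a median of -0.14 and the transcription factors 0 at least 1.2-fold higher, and 1 gene in IL-5 receptor signalling, 1 lipid mediator enzyme and 0 basophil and mast cell markers were at least 1.2-fold lower. With no floor the ribonucleases had a median of 0.30 and 2 receptors and adhesion molecules were at least 1.2-fold lower. Without _x_at and _s_at probe sets the ribonucleases had a median of 0.56 and 1 gene at least 1.2-fold higher. After quantile normalization 4 receptors and adhesion molecules were at least 1.2-fold higher, and 1 lipid mediator enzyme, 1 peritoneal macrophage marker and 1 promyelocyte marker were at least 1.2-fold lower, as was 1 promyelocyte marker after lowess. With the mean of all probe sets, 1 receptor and 1 gene of IL-5 receptor signalling were at least 1.2-fold higher and 1 gene of IL-5 receptor signalling was lower. Centring left 1 receptor at least 1.2-fold higher, and a pseudocount of 16 left 0 transcription factors. The share of all genes at least 1.2-fold higher ran from 5.64% to 8.11%. Sums of marker lists without the gene whose intensity differed most were added after seeing the data. They turned the direction for the alveolar and the peritoneal macrophage markers and kept it for basophil and mast cell, promyelocyte and neutrophil markers. Il5ra and Ccr3 were too dim for a direction, and with 1 array per group no difference has an error.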
